A study of Homo sapiens with 6 samples.

Results

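Kasumi-1 is an established human acute myeloid leukaemia line whose cells are myeloblasts, the immature forms of granulocytes, and which carries the RUNX1-RUNX1T1 fusion gene. This account covers 9 well-known long noncoding RNA genes in these cells: MALAT1, NEAT1, PVT1, MIAT, MIR17HG, MIR155HG, HOTAIRM1, NORAD and OIP5-AS1. They were taken by name, and all 9 had a row among the 29810 genes measured, of which 7133 are annotated as long noncoding. Kasumi-1 cells were kept for 48 h with I1 at 0.125 µM (3 samples) or with control (3 samples). The labels give I1 by this code alone and do not say what the control was. All samples come from 1 cell line, and no label tells of separate cultures. The p-values therefore speak of the spread among these samples only, and that spread may be technical.

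Long noncoding RNAs are transcripts made, like messenger RNAs, by RNA polymerase II, but with no known protein product. Some act as RNA itself, by holding proteins in nuclear bodies or in the cytoplasm, and others are the precursor from which microRNAs are cut. In myeloid leukaemia several of them are known as hosts of growth-promoting microRNAs or as neighbours of the MYC and HOXA genes. MicroRNAs pair with messenger RNAs mainly through a seed of 7 bases near their 5′ end.

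The 9 genes fall into groups by what they do. NORAD, a cytoplasmic RNA that binds Pumilio proteins such as PUM2, and OIP5-AS1, a cytoplasmic RNA known from mouse to direct the decay of the microRNA miR-7, act on partners outside the nucleus. MALAT1, an RNA of nuclear speckles, and NEAT1, the scaffold of paraspeckles, stay in the nucleus. MIR17HG and MIR155HG are microRNA hosts, the first for the miR-17-92 cluster and the second for miR-155. PVT1 lies beside MYC, HOTAIRM1 lies in the HOXA cluster and is known to rise in differentiating myeloid cells, and MIAT is a nuclear RNA studied mainly in heart and nerve.

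The sequences that carry these functions are given first, read from GENCODE release 29 transcripts on hg38. NORAD is a single exon of 5339 bases at chr20:36045622-36050960 on the minus strand. Its transcript held 15 copies of TGTANATA, the Pumilio recognition motif, searched on the RNA strand with overlaps allowed. Of 342 long noncoding transcripts within 20% of its length, 36.3% held at least 1 copy and 3 (0.877%, NORAD included) held as many. In 3 places 2 copies started 9 bases apart, and these are shown 5′ to 3′ with the motifs in capitals, at chr20:36049497-36049525, chr20:36048300-36048328 and chr20:36047664-36047692.
NORAD motif pair 1: tatctgTGTATATAgTGTACATAaaggac
NORAD motif pair 2: ctatacTGTATATAtTGTATATAtaacgg
NORAD motif pair 3: gtgctgTGTATATAgTGTATATAagcgga

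Among the longest transcripts of the other members, NEAT1 held 6 copies of the Pumilio motif, and 16.7% of the 12 transcripts of like length held as many. MIR17HG held 2 (4.96% of like length held as many), OIP5-AS1 held 1 (55.2% held at least 1) and the remaining 5 genes held 0, with shares of 6.29% to 62.9% holding at least 1. OIP5-AS1 (chr15:41283990-41309737, plus strand, 10 exon blocks) is shown for its pairing with miR-7. Its longest transcript had 3 matches to the miR-7 seed, the letters GTCTTCC on the RNA strand, and 43.1% of long noncoding transcripts of like length had at least 1. The match with the longest further pairing lies at chr15:41300574-41300599, and its capitals mark the runs of 14 and 8 bases complementary to miR-7. The mature miR-7 is from RefSeq (GRCh38.p14), with the seed, bases 2 to 8, in capitals.
OIP5-AS1 miR-7 site: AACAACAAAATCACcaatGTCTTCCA
hsa-miR-7-5p: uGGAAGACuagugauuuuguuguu

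MALAT1 (chr11:65497688-65506516, plus strand) ends, in its processed form, not in an added poly(A) tail but in a tract of A encoded in the genome, which folds back on U-rich motifs into a triple helix. The stretch at chr11:65506029-65506116 is shown because the kit used selects RNA by its A tail, and capitals mark the 2 U-rich motifs and the run of 13 A. The letters TTTTTCTTTT followed within 100 bases by at least 10 A occurred in the longest transcript of 7 of 16054 annotated long noncoding genes (0.0436%, MALAT1 included; RNA strand), and in 1.56% of the 64 transcripts of like length.
MALAT1 3′ end: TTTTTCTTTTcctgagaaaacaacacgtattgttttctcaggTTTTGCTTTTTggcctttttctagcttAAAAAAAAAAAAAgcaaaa

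MIR17HG (chr13:91347820-91354579, plus strand) carries 6 hairpins within 787 bases, at chr13:91350605-91351391. Their main mature microRNAs, from RefSeq (GRCh38.p14), are shown with seeds in capitals because their known targets depend on them. MiR-17 and miR-20a share 1 seed, miR-19a and miR-19b share another, and miR-18a and miR-92a each have their own. MIR155HG (chr21:25561909-25575168, plus strand, 4 exon blocks) carries miR-155, whose seed is none of these.
hsa-miR-17-5p: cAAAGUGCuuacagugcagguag
hsa-miR-20a-5p: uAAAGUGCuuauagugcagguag
hsa-miR-18a-5p: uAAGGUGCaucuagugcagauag
hsa-miR-19a-3p: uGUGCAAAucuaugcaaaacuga
hsa-miR-19b-3p: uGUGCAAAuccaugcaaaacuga
hsa-miR-92a-3p: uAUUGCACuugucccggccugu
hsa-miR-155-5p: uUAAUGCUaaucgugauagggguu

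Levels are FPKM, fragments divided by exon length in kilobases and by the library total. The length is that of all annotated exons of a gene joined, not that of the form expressed. For PVT1 it was 5493 bases, against 1699 in the longest transcript, and for OIP5-AS1 12673 against 8829. The order of genes with close levels can depend on this length. The library totals lay between 16390740 and 16947799 fragments with I1 and between 17330694 and 18204406 in control. A floor of 3 reads in a kilobase stood at 0.165 to 0.183 FPKM; floors and counting intervals cover counting error only. All 8 markers of myeloblasts were detected, led by MPO at 6712 ± 358 FPKM with I1 and 8054 ± 1219 in control (SD, n = 3 each) and PRTN3 at 4173 ± 549.7 and 4687 ± 428, and none passed the test. Of the markers of other cells, the mature neutrophil list summed to 53.9 to 93.3 FPKM with I1 and 63.7 to 114 in control, nearly all of it CSF3R, a growth factor receptor that averaged 73.2 and 86.5. Its member ITGAM averaged 0.0709 and 0.0823. The monocyte list summed to 3.49 to 8.46 FPKM with I1 and 3.92 to 10.4 in control, led by LYZ at 6.76 and 7.82, with CD14 at 0.0313 and 0.0592. The B cell list reached at most 2.10 and 1.73, the T cell list 1.40 and 0.811, the stromal list 0.0381 and 0.0727, and the red cell list 0.0131 and 0. These sums cover only markers with a row. Rows were found for 3 of 5 neutrophil and 2 of 4 monocyte markers. For B cells, stroma and red cells they were found for 2 of 3 each, and for T cells for 3 of 3. MMP8, LTF, FCGR3A, CD163, MS4A1, HBB and COL1A2 had no row under these names, so their levels are not known here. None of the tested markers passed. Control replicate 1 stood apart from the other 2 controls, with higher values the higher a gene's GC content was (Spearman's rho 0.673 over 11899 genes, a description). In bulk samples, fewer cells of a type and less RNA per cell cannot be told apart.

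All 9 genes were above 0 in all 6 libraries, and their levels spanned more than 3 orders of magnitude. By mean FPKM over the libraries the order was NORAD, MALAT1, OIP5-AS1, NEAT1, MIR155HG, MIR17HG, PVT1, HOTAIRM1 and MIAT. This is an order of FPKM from a kit that selects RNA by its A tail. Processed MALAT1 ends without an added tail, so its level in the cells may be understated, which was not tested. NORAD was above MALAT1 in 6 of 6 libraries, at 2.09 times its mean, and MALAT1 above OIP5-AS1 in 6 of 6, at 3.67 times. OIP5-AS1 exceeded NEAT1 in 5 of 6 libraries, MIR155HG exceeded MIR17HG in 5 of 6, and MIR17HG exceeded PVT1 in 4 of 6, so these neighbours were not separated beyond their spread. NEAT1 was above MIR155HG, PVT1 above HOTAIRM1 and HOTAIRM1 above MIAT in 6 of 6 libraries each, with ranges that did not overlap. The median of the 6614 long noncoding genes above 0 was 0.130 FPKM, so 8 of the 9 lay above it and MIAT below.

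**Figure D1:**
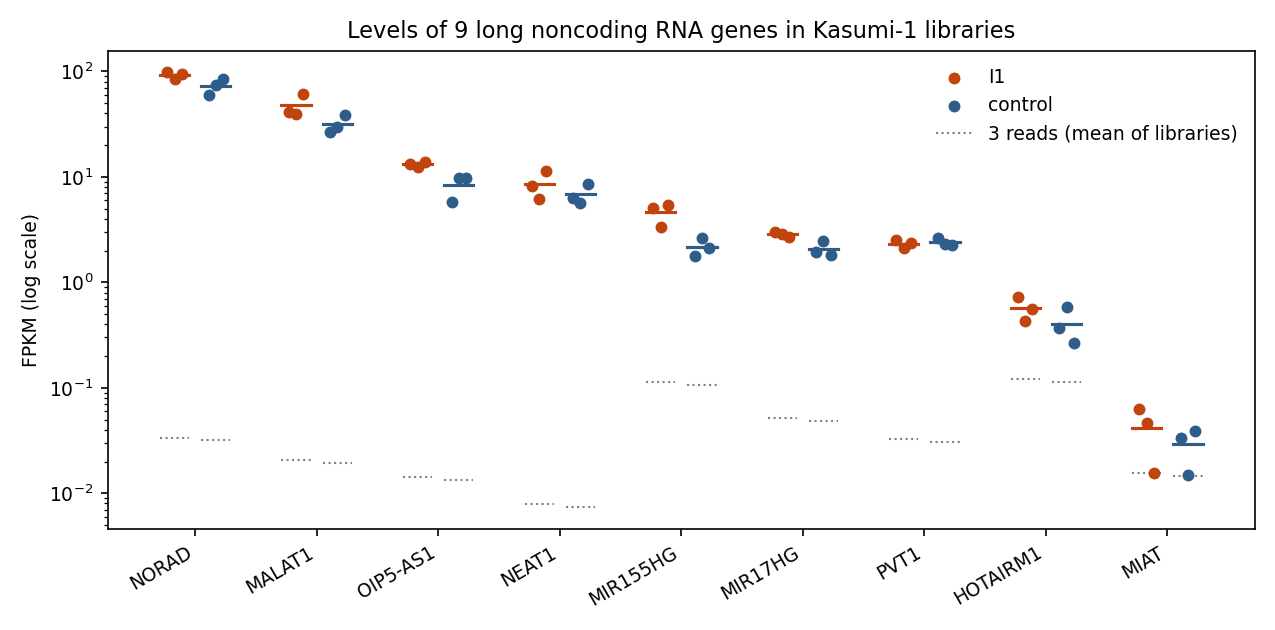
FPKM on a log scale of the 9 long noncoding RNA genes in each of 3 I1 libraries (left, orange) and 3 control libraries (right, blue); horizontal bars are group means and dotted lines the FPKM of 3 reads for that gene's length. NORAD is highest at 60.1 to 97.8 FPKM, and MIAT, at 0.0150 to 0.0636 FPKM, is the one gene whose points reach its floor.

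NORAD is, by these levels, among the most abundant long noncoding RNAs of the cells. It ranked 4 of 7133 by mean FPKM with I1 and 7 in control. Its levels were 97.8, 84.6 and 95.4 FPKM in I1 replicates 1 to 3 and 60.1, 74.9 and 84.5 FPKM in control replicates 1 to 3. Each I1 library lay above each control library, but I1 replicate 2 exceeded control replicate 3 by little. The log2 fold change, I1 over control on the scale of log2(FPKM + 1), was 0.35 ± 0.151 (SE, 95% interval -0.0011 to 0.70), and limma's adjusted p was 0.467. Without control replicate 1 the log2 fold change was 0.21.

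OIP5-AS1 had 13.2, 12.5 and 13.8 FPKM with I1 and 5.77, 9.71 and 9.68 FPKM in control. The 3 I1 libraries lay close together, and the groups did not overlap. Control replicate 1 was the lowest of all 6. The log2 fold change was 0.63 ± 0.189 (SE, 95% interval 0.19 to 1.06; limma adjusted p = 0.467), and 0.41 without control replicate 1. The readthrough gene AC087721.2 covers the same span on the same strand and was not analysed here, so the share of reads it could take is uncertain.

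MALAT1 had 41.5, 39.4 and 61.7 FPKM with I1 and 26.7, 29.6 and 38.7 FPKM in control. In both groups replicate 3 was the highest, and the lowest I1 library was barely above the highest control. The groups did not overlap. Its log2 fold change was 0.56 ± 0.206 (SE, 95% interval 0.084 to 1.04; limma adjusted p = 0.467), and 0.36 without I1 replicate 3. MALAT1 ranked 13 among long noncoding genes by mean FPKM with I1 and 18 in control.

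NEAT1 (chr11:65422774-65445540, plus strand) is made in a short polyadenylated form and in a long form that builds paraspeckles, and gene-level values do not separate them. Its FPKM is divided by all 22767 bases of exon, so its place in the order of levels depends on which form the reads came from. It had 8.18, 6.19 and 11.4 FPKM with I1 and 6.31, 5.61 and 8.56 FPKM in control. Again replicate 3 was highest in both groups, and the groups overlapped. In all 3 pairs of samples with the same number NEAT1 was higher with I1, by 1.30, 1.10 and 1.33 times. The log2 fold change was 0.27 ± 0.223 (SE, 95% interval -0.24 to 0.79; limma adjusted p = 0.553), and 0.072 without I1 replicate 3.

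MIR155HG showed the largest difference of the 9. It had 5.07, 3.36 and 5.45 FPKM with I1 and 1.79, 2.63 and 2.12 FPKM in control. All 3 I1 libraries were above all 3 controls, and I1 replicate 2 was nearest to them. These levels rest on 133, 91 and 145 reads with I1 and 52, 73 and 60 reads in control, a depth-scaled ratio of 2.12 (exact 95% interval 1.78 to 2.55, counting error only). The log2 fold change was 0.81 ± 0.189 (SE, 95% interval 0.38 to 1.25; limma adjusted p = 0.467 over 11913 genes, and 0.00265 unadjusted). By log2 fold change 1.06% of all tested genes stood higher, and the gene ranked 22 of 947 tested long noncoding genes.

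MIR17HG had 3.02, 2.89 and 2.69 FPKM with I1 and 1.92, 2.48 and 1.81 FPKM in control. The I1 values were tight and lay above all controls. The reads numbered 173, 171 and 156 with I1 and 122, 150 and 112 in control. Its log2 fold change was 0.34 ± 0.142 (SE, 95% interval 0.010 to 0.67; limma adjusted p = 0.467). The precursor hairpins of the cluster and that of miR-155 were not analysed here, and libraries of polyadenylated RNA do not measure mature microRNAs, so these are levels of the host transcripts.

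PVT1 (chr8:127794533-128101253, plus strand, 21 exon blocks) did not pass the test. It had 2.52, 2.11 and 2.37 FPKM with I1 and 2.66, 2.29 and 2.26 FPKM in control. The groups overlapped, and 1 of 3 pairs was higher with I1. Its log2 fold change was -0.032 ± 0.134 (SE), with a 95% interval of -0.34 to 0.28 that excluded 1 in size (limma adjusted p = 0.913).

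HOTAIRM1 and MIAT stayed under the filter of 1 FPKM in 3 libraries and were not tested. HOTAIRM1 (chr7:27095647-27100265, plus strand) had 0.734, 0.434 and 0.563 FPKM with I1 and 0.367, 0.579 and 0.265 FPKM in control, from 18, 11 and 14 reads and from 10, 15 and 7 reads. All 6 libraries were above the 3-read floor, which is 0.110 to 0.122 FPKM for its 1496 bases of exon, and the groups overlapped. The depth-scaled ratio was 1.43 with an exact interval of 0.885 to 2.34, so a difference was not detectable at this depth.

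MIAT (chr22:26646428-26676475, plus strand) was the scarcest. It had 0.0636, 0.0462 and 0.0157 FPKM with I1 and 0.0334, 0.0150 and 0.0393 FPKM in control, from 12, 9 and 3 reads and from 7, 3 and 8 reads. The floor was 0.0143 to 0.0159 FPKM, so 1 library of each group was at 3 reads. The ratio was 1.42 with an exact interval of 0.739 to 2.78, and MIAT shares its strand and part of its span with MIATNB, at a mean of 0.594 FPKM, so reads at that end are uncertain.

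The log2 fold change was above 0 for 6 of the 7 tested members, against 54.5% of all tested genes and 64.1% of the tested long noncoding genes, but none was called. The threshold was an adjusted p under 0.05 together with a log2 fold change of 1 or more in size. Of the 7 tested, 0 passed it, against 0.0336% of all 11913 tested genes. In 5 of the 7 (NORAD, OIP5-AS1, MALAT1, MIR155HG and MIR17HG) every I1 library was above every control library, against 12.9% of all tested genes and 15.4% of the 947 tested long noncoding genes. With NEAT1, 6 of the 7 were higher in 3 of 3 pairs, against 32.1% of all and 30.7% of long noncoding genes. The unadjusted p was under 0.05 with a higher level in I1 for 4 (OIP5-AS1, MALAT1, MIR155HG and MIR17HG), against 6.8% of all and 11.5% of long noncoding genes. The members share libraries and were named when earlier results of these data were known, so these counts are a description. With the replicate number as a block, the adjusted p of the 6 higher genes was 0.140 to 0.163 and none passed, against 0.0504% of all tested genes. The 95% intervals given above are without the block. With it, those of NEAT1 (0.029 to 0.52) and NORAD (0.060 to 0.63) excluded 0. They included 0 again when the correction for GC content described below was added (-0.069 to 0.32 and -0.049 to 0.28). In that fit MIR17HG (-0.30 to 0.22) and PVT1 (-0.26 to 0.20) also included 0. MALAT1 (0.090 to 0.50), MIR155HG (0.088 to 0.82) and OIP5-AS1 (0.14 to 0.56) excluded 0, with limma adjusted p of 0.239, 0.253 and 0.223.

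**Figure D2:**
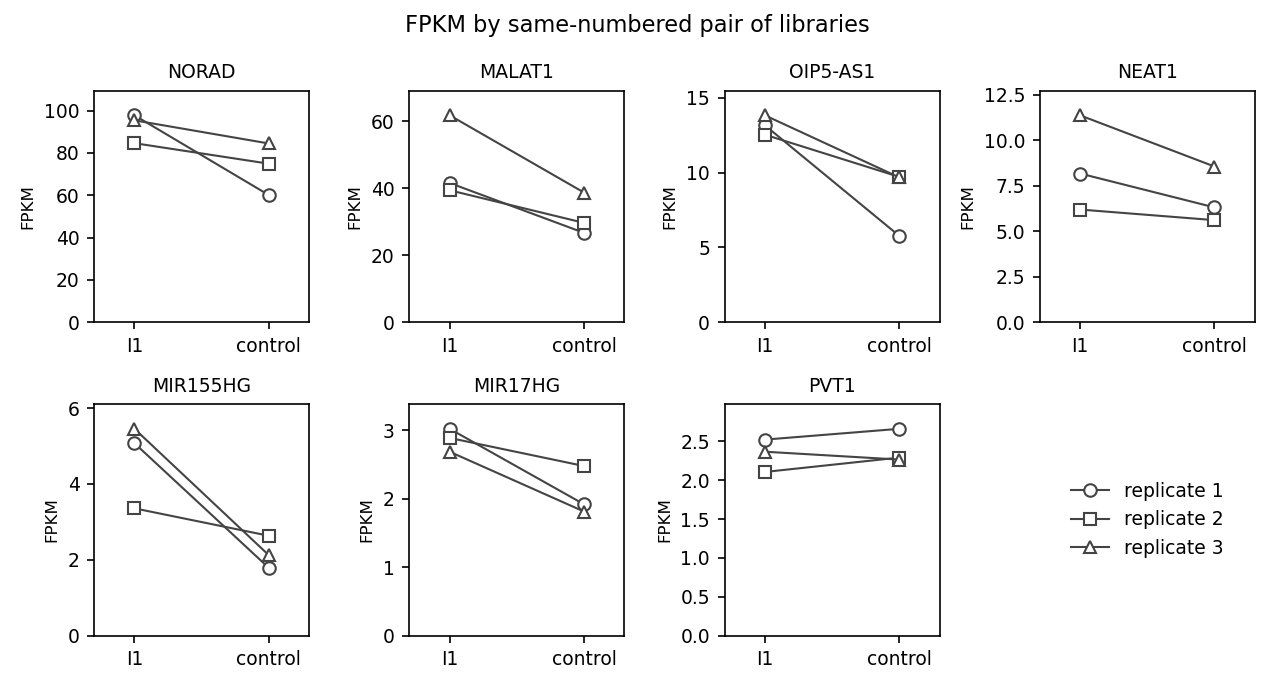
FPKM of the 7 tested genes in I1 (left) and control (right), 1 panel a gene, with a line and marker for each same-numbered pair of libraries. The lines slope down to control in all 3 pairs for 6 genes, while for PVT1 1 of 3 pairs is higher with I1.

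Together the 9 genes took 0.0644%, 0.0553% and 0.0695% of all FPKM in I1 replicates 1 to 3 and 0.0362%, 0.0453% and 0.0533% in control replicates 1 to 3. The I1 libraries were the 3 highest. All long noncoding genes together took 2.09 ± 0.159% with I1 and 1.81 ± 0.126% in control (SD, n = 3 each; exact permutation test, 2-sided p = 0.2). Long noncoding genes with at least 1 FPKM numbered 1026, 929 and 998 with I1 and 791, 842 and 914 in control (2-sided p = 0.1 by an exact permutation test, the lowest value 3 libraries against 3 can give). Both quantities were higher with I1 in 3 of 3 pairs (exact permutation test within pairs, 2-sided p = 0.25, the lowest value 3 pairs can give).

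The GC content of the exons moved with these differences. Across 11899 tested genes the log2 fold change fell with GC content (Spearman's rho -0.756, a description). The exons of the 6 higher genes held 37.1% to 44.1% G and C, and those of PVT1 49.4%, against a median of 47.9% for the tested long noncoding genes. After a correction for GC content within each library, the log2 fold changes were 0.45 for MIR155HG, 0.35 for OIP5-AS1, 0.29 for MALAT1, 0.12 for NEAT1, 0.12 for NORAD, -0.031 for PVT1 and -0.041 for MIR17HG, whose direction turned. With it, 95% intervals excluded 0 for MIR155HG (0.014 to 0.89) and OIP5-AS1 (0.11 to 0.59), and the limma adjusted p was 0.942 for both. The median log2 fold change of tested long noncoding genes was 0.11 before and 0.051 after the correction, and that of all tested genes was 0.034 before and -0.0032 after. What part GC content has in the members' values was not tested.

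**Figure D3:**
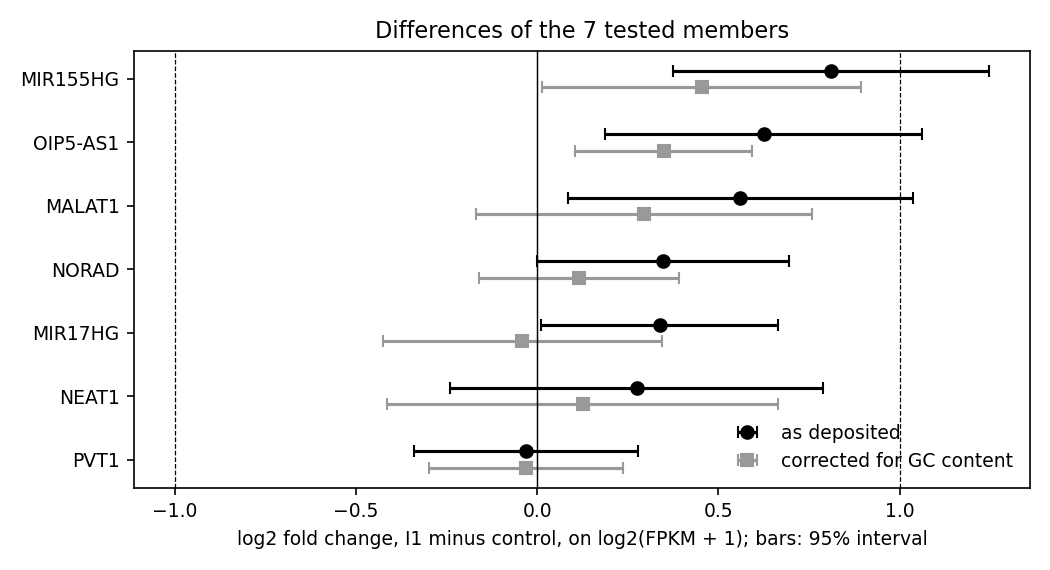
Log2 fold change, I1 minus control on log2(FPKM + 1), of the 7 tested genes with 95% intervals, from FPKM as deposited (black circles) and after a correction for GC content (grey squares); dashed lines mark the threshold of 1 in size. MIR155HG is highest at 0.81 and 0.45, and MIR17HG moves to -0.041 with the correction.

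**Figure D4:**
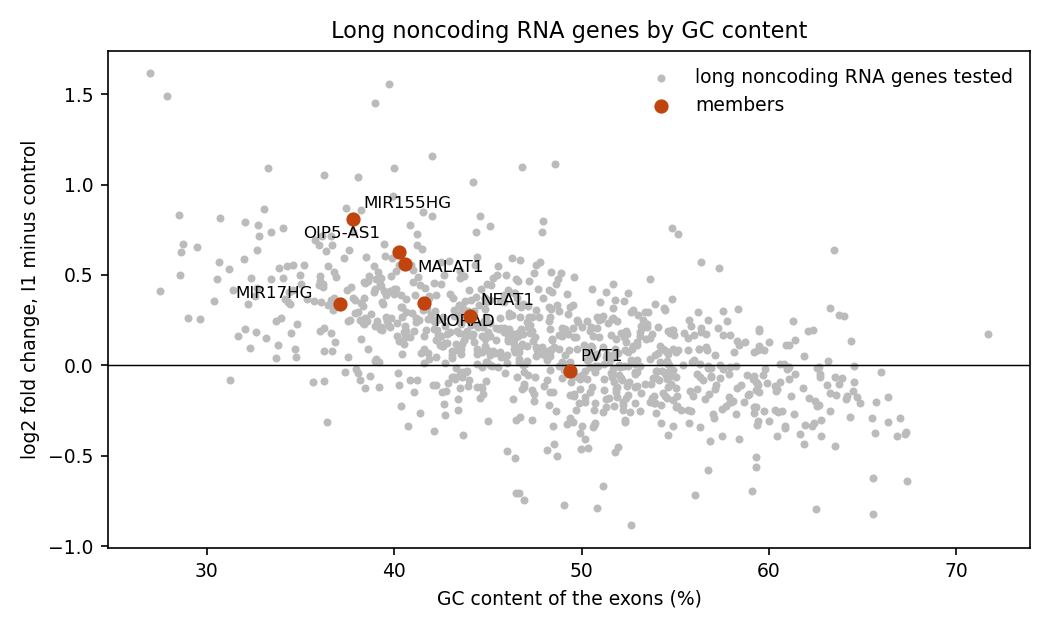
Log2 fold change, I1 minus control, against the GC content of the exons for the 947 tested long noncoding RNA genes (grey) and the 7 tested members (orange). Genes of low GC content lie higher, and the members lie within the cloud, with PVT1 near 0 at 49.4%.

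The messenger RNAs of proteins that work with the nuclear RNAs did not pass the test. All values for proteins here and below are levels of their messenger RNAs, and protein amounts were not measured. Of 16 paraspeckle proteins, 9 had log2 fold changes above 0 and 7 below, with a median of 0.049 (0.034 over all tested genes, 54.5% of which were above 0). The most abundant were NONO, a core protein that binds NEAT1, at 135 ± 14.0 FPKM with I1 and 135 ± 11.5 in control (SD, n = 3 each), and HNRNPK, which favours the long form of NEAT1, at 126 ± 11.6 and 125 ± 15.5. Of 15 speckle and splicing proteins linked to MALAT1, 13 were above 0 and 2 below, with a median of 0.19 that was 0.0067 after the GC correction. HNRNPC, which binds new transcripts, and the splicing factor U2AF2 were the most abundant over all 6 libraries, at 96.5 ± 8.54 and 71.4 ± 8.35 FPKM with I1 and 99.5 ± 13.5 and 81.2 ± 4.77 in control. Among 10 factors of nuclear retention and 3′ end processing, 7 were above 0 and 3 below, led by HNRNPK and by NUDT21, a subunit of cleavage factor I, at 44.4 ± 5.02 with I1 and 34.1 ± 10.6 in control.

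Partners of the cytoplasmic RNAs did not pass either. Of 5 NORAD-binding proteins, 4 were above 0 and 1 below, led by RBMX, an RNA-binding protein, at 81.3 ± 8.81 FPKM with I1 and 73.6 ± 5.49 in control, and KHDRBS1, the RNA-binding protein SAM68, at 72.2 ± 5.64 and 75.4 ± 2.13. PUM2, added to the named genes after its values were seen, had 36.5 ± 1.85 FPKM with I1 and 30.5 ± 6.02 in control. NORAD thus stood above the messenger RNA of each of its 5 listed partners on the FPKM scale in I1, at a mean of 92.6. In control, at 73.1, it stood above all but those of KHDRBS1 and RBMX. This does not set NORAD against the amounts of these proteins. Of 6 partners of OIP5-AS1, 3 were above 0 and 3 below. ZSWIM8, a ubiquitin ligase receptor that acts in microRNA decay, was named after its values were seen. It was the one of the 6 whose groups did not overlap. All its I1 libraries were below all controls, as in 8.74% of all tested genes. It had 4.68 ± 0.208 FPKM with I1 and 6.51 ± 0.839 in control (log2 fold change -0.40, and -0.22 after the GC correction; limma adjusted p = 0.467). AGO2, the slicing Argonaute, had 28.1 ± 1.18 FPKM with I1 and 22.9 ± 6.32 in control, and ELAVL1, an RNA-binding protein held by OIP5-AS1, 19.3 ± 3.50 and 19.5 ± 2.45. Of 11 exosome and decay factors 8 were above 0 and 3 below, with a median of 0.20 (0.0021 after the GC correction), led by XRN2, a nuclear exonuclease, at 68.9 ± 8.47 with I1 and 72.2 ± 1.21 in control, and MTREX, the helicase of the nuclear exosome, at 25.8 ± 2.22 and 21.8 ± 4.70.

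For the microRNA hosts, 3 lists were read. Of 13 genes of microRNA processing 10 were above 0 and 3 below, with a median of 0.12 and 0 past the threshold. The RNA helicases DDX5 and DDX17, cofactors of the Drosha complex, had 105 ± 1.34 and 110 ± 4.96 FPKM with I1 and 96.5 ± 7.05 and 84.1 ± 10.4 in control. Of 13 known targets of the MIR17HG microRNAs 12 were tested, with 9 above 0, 3 below and none past the threshold, led by TGFBR2, a receptor of TGF-beta, at 33.7 ± 4.28 and 31.9 ± 6.53 FPKM and STAT3, a transcription factor of cytokine signalling, at 26.3 ± 1.44 and 26.5 ± 1.30 (I1 and control). Of 12 known targets of miR-155, 7 were tested, with 4 above 0 and 3 below. SPI1, which encodes the myeloid factor PU.1, had 88.0 ± 4.95 FPKM with I1 and 113 ± 9.87 in control, all 3 I1 libraries below all controls, as in 8.74% of all tested genes (log2 fold change -0.36, and -0.16 after the GC correction; limma adjusted p = 0.467). INPP5D, the phosphatase SHIP1, had 31.4 ± 4.81 and 32.7 ± 5.24. In 2 further targets, named after their values were seen, all I1 libraries were above all controls, as in 12.9% of all tested genes. SMAD5, a mediator of BMP signalling, had 8.85 ± 0.495 FPKM with I1 and 6.16 ± 2.07 in control (log2 fold change 0.50, and 0.21 after the GC correction; limma adjusted p = 0.467). BACH1, a repressor of haem-responsive genes, had 11.1 ± 0.455 with I1 and 8.65 ± 2.37 in control (0.36 and 0.078; limma adjusted p = 0.467).

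PVT1 and HOTAIRM1 were read beside their neighbours. MYC, 53099 bases from PVT1 and an inducer of MIR17HG, had 337 ± 48.9 FPKM with I1 and 391 ± 129 in control, far above PVT1 in every library (log2 fold change -0.18, limma adjusted p = 0.701). Of 5 genes of the MYC network and the E2F family known to induce MIR17HG, 2 were above 0 and 3 below, with E2F1 at 21.4 ± 1.43 with I1 and 23.8 ± 1.14 in control. Of 11 HOXA genes, which set position in the embryo and act in blood progenitors, 4 were tested, 1 above 0 and 3 below, led by HOXA5 at 5.57 ± 1.39 FPKM with I1 and 6.25 ± 1.03 in control and HOXA10 at 3.73 ± 0.998 and 4.25 ± 0.539. HOXA2, 89 bases from HOTAIRM1, averaged 0.439 FPKM with I1 and 0.315 in control. No source used here says if counting took the strand into account, so reads of HOTAIRM1 and OIP5-AS1, both antisense genes, may not be separable from those of the other strand. MIR1206, a short hairpin gene inside PVT1, had 2.73 ± 1.57 FPKM with I1 and 2.57 ± 1.49 in control. Its libraries ran from 0.931 to 4.08 FPKM. The floor of 3 reads rises in FPKM as a gene gets shorter, and it was not computed for this gene. These values may therefore lie near that floor and cannot be set beside those of PVT1.

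The other neighbours did not pass the test or were not tested. FRMD8, beside NEAT1, had 8.27 ± 1.32 FPKM with I1 and 8.98 ± 1.20 in control (log2 fold change -0.11). OIP5, which overlaps OIP5-AS1 on the other strand, had 5.03 ± 0.455 and 5.35 ± 1.40 (-0.052). CHP1 and NUSAP1, to either side of OIP5-AS1, had log2 fold changes of -0.0065 and 0.34. MRPL39, 10488 bases from MIR155HG, had 0.26, SKAP2, beside the HOXA cluster, 0.55, and SLITRK5, the nearest tested gene beside MIR17HG, 0.12. The protein-coding neighbours of NORAD, CNBD2 and EPB41L1, were low and not tested, at 0.0280 and 0.0165 FPKM with I1 and 0.0414 and 0.0114 in control. GPC5, beside MIR17HG, NCAM2, beside MIR155HG, and MN1, beside MIAT, were not tested either, at 0.0280, 0.0355 and 0.0834 FPKM with I1 and 0.0109, 0.0157 and 0.0758 in control. Over all the lists of partners, targets and neighbours, 97 genes were tested by limma, 64 were above 0, 0 had an adjusted p under 0.05 and 9 an unadjusted p under 0.05, 6 of them higher with I1 and 3 lower. The share above 0 was 65.98%, against 54.5% of all tested genes. The shares with an unadjusted p under 0.05, 9.28% in either direction and 6.19% higher, were near those of all tested genes, at 9.57% and 6.8%.

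Other known long noncoding RNAs showed no common direction. Of 41 listed, 16 were tested, 7 above 0 and 9 below, with a median of -0.094. The share above 0 was 43.75%, against 64.1% of all tested long noncoding genes. By limma 0 passed, and 2 (12.5%) had an unadjusted p under 0.05, against 13.6% of tested long noncoding genes. DANCR, a snoRNA host studied in progenitor cells, had 233 ± 21.1 FPKM with I1 and 256 ± 37.3 in control, and GAS5, another snoRNA host, 79.6 ± 11.6 and 87.6 ± 25.9.

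The genes whose levels moved most like each member across the 6 libraries were ranked by Pearson's r of log2(FPKM + 1) over 6930 genes of at least 5 FPKM. OIP5-AS1 was closest to SOCS4 (0.999) and LMBR1 (0.997), and 919 genes exceeded 0.9 with it. NORAD was closest to HINT3 (0.998) and BCAT1 (0.997), MALAT1 to TENT5A (0.988) and RAB27A (0.980), and NEAT1 to AGAP4 (0.978) and ACSL3 (0.974). MIR155HG was closest to ERLIN1 (0.994) and ASAH1 (0.983), MIR17HG to NDFIP1 (0.993) and CDCA7 (0.988), and PVT1 to CAT (0.988) and TOP1MT (0.984). Among the members themselves, NORAD and OIP5-AS1 had r of 0.953, and 0.895 after group means were removed, and MALAT1 and NEAT1 had 0.875 and 0.908. These are descriptions over 6 libraries that share group, depth and GC trend.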

How the data were processed

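Per the labels' protocols, Trizol was used for extraction and the TruSeq Stranded mRNA kit for libraries. The submitters' processing notes name HTSeq, Cufflinks, HISAT2 and Trimmomatic and the build hg38; what each did, in which version, annotation and strand setting: not given in the sources used here. FPKM values for 29810 genes in 6 columns are as deposited by the authors; 0 columns were unused. The columns carry the 6 sample titles, although the name of the table mentions different lines and a different agent. The members and lists were chosen with earlier results of these data known.

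With GENCODE 29 exon lengths (29703 genes matched), 95.9% of genes came out as whole reads in all libraries within 0.05 reads, which gave depth, reads and floors. For MALAT1 (8755 bases) and MIAT (11505 bases) the length used makes all 6 values whole reads; for MIAT 95 lengths did so and gave the same reads. Reads in such genes numbered 14037795 to 15359260 a library.

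The comparison used limma 3.58.1 (R 4.3.3) on log2(FPKM + 1) with an intensity trend, 2-sided, with Benjamini-Hochberg adjustment over the 11913 genes that reached 1 FPKM in 3 or more libraries; this scale understates changes of low genes. The fit was tested on simulated counts without pairing, GC trend or an outlying library, so that test does not cover these features of the data. Python 3.11.15 was used for the rest. Named genes are the members, their nearest protein-coding neighbours, up to 2 genes of highest mean per list and the 2 most alike per member; some of these are not reported here. Alternatives were other pseudocounts, filters and scalings, a GC correction, the replicate block, no trend, and leaving out each library. Deviations from group means correlated at 0.476, 0.457 and 0.412 between same-numbered samples and at -0.348 to -0.0987 otherwise, so the numbers in the titles were taken to pair the samples. Libraries of 1 group differed by more than counting error, with a chi-square of 19.1 to 60.9 per degree of freedom.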

Additional observations from a re-analysis of the deposited data

How the results depend on the processing

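Over the 19 alternatives the 7 tested members gave 130 values, of which 125 kept their direction, 5 reversed and 0 had an adjusted p under 0.05. MIR17HG reversed to -0.041 with the GC correction, with and without the replicate block. PVT1 ranged from -0.073 to 0.021 when 1 library was left out, reversing without control replicate 1 or I1 replicate 2 (0.018), and reversed to 0.031 with the GC correction when control replicate 1 was dropped, an alternative chosen after seeing the data. The cause was not tested. The number of genes past the threshold, 4 as reported, was 0 with pseudocounts of 0.1 or 0.5, with no filter, with a mean of at least 5 FPKM, with the GC correction, with long noncoding genes tested alone, and with the GC correction when control replicate 1 was dropped; these settings gave 107 to 1726 genes at an unadjusted limma p under 0.05. It was 2 with quantile normalization, 6 with the replicate block and 1 with the block and the GC correction. Leaving out 1 library gave 0 to 2 (437 to 2074 unadjusted), with 2 only without control replicate 2. Among long noncoding genes 0 passed in every setting (25 to 404 unadjusted). The blocked value changed no member's call. With a pseudocount of 0.1 the log2 differences of HOTAIRM1 and MIAT were 0.45 and 0.12, against 0.17 and 0.017 as reported. At 3 to 18 reads a library, neither a rise nor a fall of these genes could be seen, and 3 libraries a group limit the rest.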
